A study of Mus musculus with 47 samples.

Results

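The RNA of red blood cells in mouse muscle was followed through 5 genes: the adult beta globins Hbb-bs and Hbb-bt, the adult alpha globins Hba-a1 and Hba-a2, and Alas2. They were taken by their Ensembl identifiers, and all 5 had a row among the 13500 genes of the table. The table gives log2 FPKM (fragments per kilobase of gene, scaled to the reads of the library) for 47 libraries of whole tibialis anterior, a fast muscle of the lower leg, from female C57BL/6 mice fed ad libitum. Muscle was collected at ZT12 or ZT0, which are lights-off and lights-on in a standard light cycle.

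The libraries form 12 groups of 4, except WT ADX at ZT0 with 3. RE-RE mice carried Bmal1(stopFL/stopFL) with both Syt10-Cre(-/tg) and Hsa-Cre(-/tg), so that the clock gene Bmal1 depends on Cre, and they were adrenalectomized (RE-RE ADX, 8 to 18 weeks old) or sham-operated (RE-RE sham, 9 to 14 weeks). Syt10-Cre acts in the brain, including the central clock, and Hsa-Cre in skeletal muscle, and neither is a driver for blood cells. Wild-type (WT) mice were adrenalectomized and injected with dexamethasone, a synthetic glucocorticoid, at 5 mg/kg (WT ADX+DEX, 11 to 14 weeks). Others received adrenaline at 0.5 mg/kg after the same surgery (WT ADX+ADR, 13 to 14 weeks). The remaining wild-type mice were adrenalectomized without injection (WT ADX, 12 to 17 weeks) or sham-operated (WT sham, 9 to 12 weeks). Injections were given at ZT12 on 10 days, and the labels name a recovery of 2 weeks. In the injected groups, ZT12 and ZT0 libraries thus differ in the time since an injection as well as in time of day. The 2 cannot be told apart there. Several comparisons share the WT ADX, WT sham or WT ADX+DEX libraries and are not independent of each other. Adrenalectomized mice drank saline with glucose, and no group was injected with vehicle, so the agent cannot be told apart from the injection. Perfusion of the muscle is not mentioned in the sources used here, and nothing states which libraries came from separate cages or litters, so each p-value measures the spread between these libraries.

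Adult hemoglobin is a tetramer of alpha and beta globin chains, each holding a heme. Developing red cells make heme with Alas2, the erythroid form of the first and rate-limiting enzyme of heme synthesis, whereas other tissues use Alas1. Young red cells released into the circulation, the reticulocytes, still contain globin RNA after the nucleus is lost, so globin RNA in a muscle sample is largely a reading of the blood it holds. Glucocorticoids and adrenaline both act on red cell production and on blood vessels. Hbb-bs and Hbb-bt are neighbouring copies on chromosome 7, Hba-a1 and Hba-a2 are neighbouring copies on chromosome 11, and Alas2 is on the X chromosome.

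The promoters of these genes are shown because the 5 transcripts moved together in the libraries. Any part of the promoters in this was not tested. Each line gives the 150 bases that end at the base before the RefSeq transcript start, 5′ to 3′ on the strand of the gene, from RefSeq on GRCm38.p6. Capitals mark motifs on either strand. They are GATA, the core bound by GATA factors. They are also CACCC, the core bound by Krüppel-like factors, with GGGTG as its reverse match. A further one is the CCAAT box, with ATTGG as its reverse match. The last is ATATAA, a form of the TATA box. In Hbb-bt a forward and a reverse match to the CCAAT box share no base but adjoin. The RefSeq starts of all 5 genes lie inside the GENCODE genes given below, since the annotations differ.
Hbb-bs, chr7:103827929-103828078, minus strand: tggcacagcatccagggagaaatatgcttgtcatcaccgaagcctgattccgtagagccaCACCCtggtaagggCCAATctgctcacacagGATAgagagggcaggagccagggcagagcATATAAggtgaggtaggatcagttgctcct
Hbb-bt, chr7:103813924-103814073, minus strand: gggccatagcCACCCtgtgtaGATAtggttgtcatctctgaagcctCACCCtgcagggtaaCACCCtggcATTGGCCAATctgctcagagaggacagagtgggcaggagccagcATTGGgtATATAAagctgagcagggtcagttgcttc
Hba-a1, chr11:32283522-32283671, plus strand: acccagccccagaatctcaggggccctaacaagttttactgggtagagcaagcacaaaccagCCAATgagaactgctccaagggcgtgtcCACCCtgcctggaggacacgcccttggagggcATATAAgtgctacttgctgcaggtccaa
Alas2, chrX:150547267-150547416, plus strand: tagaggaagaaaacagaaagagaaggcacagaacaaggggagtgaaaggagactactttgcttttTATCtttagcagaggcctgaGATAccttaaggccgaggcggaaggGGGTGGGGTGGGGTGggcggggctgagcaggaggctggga

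All 4 globin windows held ATATAA, with its first letter 28 to 31 bases before the start. All 4 also held the CCAAT box and a CACCC core. The window of Hba-a2 (chr11:32296342-32296491) shares an identical stretch of 147 bases with that of Hba-a1, against 14 bases between Hbb-bs and Hbb-bt. Alas2 held GATA on both strands and 3 CACCC matches, with no TATA box of these letters and no CCAAT box. GATA was also in the windows of Hbb-bs and Hbb-bt, and in neither alpha globin window. Of 32851 promoter windows of this length, 5.35% held ATATAA on either strand. The CCAAT box was in 24.5% of them, the CACCC core in 37.4% and GATA in 35.7%.

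The globins were well expressed for muscle and Alas2 was low. Hbb-bs (ENSMUSG00000052305, chr7:103826534-103828096) averaged 84.6 FPKM over the 47 libraries, at the 97.1 percentile of all genes in the table. Hba-a1 (ENSMUSG00000069919, chr11:32283511-32284465) averaged 32.0 FPKM, Hba-a2 (ENSMUSG00000069917, chr11:32296489-32297298) 27.4 FPKM and Hbb-bt (ENSMUSG00000073940, chr7:103812524-103813996) 20.1 FPKM. Alas2 (ENSMUSG00000025270, chrX:150547375-150570638) averaged 2.25 FPKM, at the 39.1 percentile. None of the 5 was at 0 in any library. Single libraries ranged between 35.5 and 208 FPKM for Hbb-bs and between 0.631 and 5.58 FPKM for Alas2.

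The copies within each globin pair cannot be separated with certainty. Of the 60-base words (the read length) in the GENCODE transcripts of Hba-a2, 87.5% also occur in Hba-a1, and 70.6% of those of Hba-a1 occur in Hba-a2. For Hbb-bt 57.6% occur in Hbb-bs, and for Hbb-bs 52.5% occur in Hbb-bt. How reads that match both copies were counted is not given in the sources used here, so a difference between 2 copies is uncertain and the summed pair is the safer value.

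The libraries were muscle by their markers: all 10 fast muscle genes had a row, led by Acta1, the skeletal actin, with a mean of 19718 FPKM. The steps between low values put the depth at 16000000 to 35800000 reads, and at that depth Alas2 rests on about 33.1 to 394 reads per library and Hbb-bs on about 516 to 4706. In 7 libraries at most 1 low value coincided exactly with those of their own group, against 25 to 103 in the other 40. The 7 are WT sham ZT0 replicate 4 and ZT12 replicate 8, RE-RE sham ZT0 replicate 2 and ZT12 replicate 6, and RE-RE ADX ZT0 replicates 1 and 4 and ZT12 replicate 5. None of them belongs to WT ADX+DEX, WT ADX+ADR or WT ADX. Most genes specific to red cells (among them Slc4a1, Klf1 and Ahsp) had no row among the genes analysed, so the erythroid identity of the signal rests on the globins and Alas2.

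**Figure D1:**
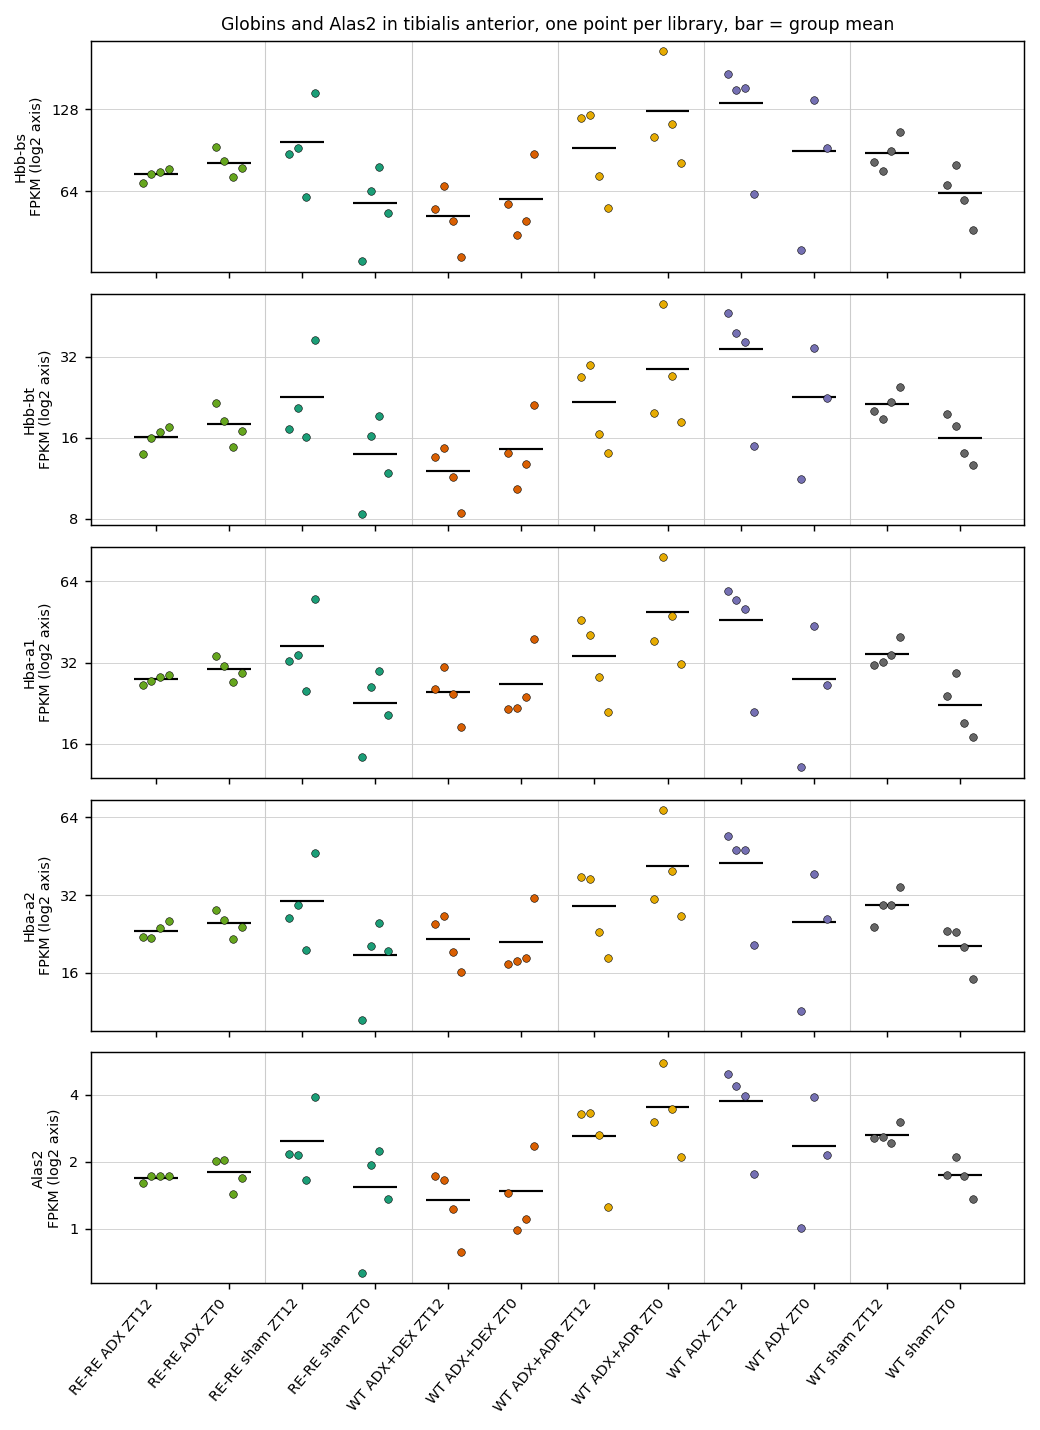
FPKM of the 5 genes (log2 axis) in each of the 47 libraries by group; points are libraries and bars are group means. Hbb-bs lies between 36.9 and 87.7 FPKM in the 8 WT ADX+DEX libraries, while 5 of the 7 WT ADX libraries lie above 87.7 FPKM.

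The group means were highest in WT ADX at ZT12 for all genes but Hba-a1, which was highest in WT ADX+ADR at ZT0. WT ADX+DEX at ZT12 was lowest for Hbb-bs, Hbb-bt and Alas2, while WT sham at ZT0 was lowest for Hba-a1 and RE-RE sham at ZT0 for Hba-a2. Hbb-bs averaged 134.5 ± 48.9 FPKM in WT ADX at ZT12 and 126 ± 56.5 in WT ADX+ADR at ZT0 (SD, n = 4 each). Next came RE-RE sham at ZT12 with 96.8 ± 35.6, WT ADX+ADR at ZT12 with 92.3 ± 33.1, WT ADX at ZT0 with 89.6 ± 49.4 (n = 3) and WT sham at ZT12 with 88.3 ± 12.6. RE-RE ADX followed with 81.6 ± 8.88 at ZT0 and 73.9 ± 3.64 at ZT12. WT sham at ZT0 had 63.1 ± 14.0, WT ADX+DEX at ZT0 59.9 ± 19.4, RE-RE sham at ZT0 57.9 ± 18.2 and WT ADX+DEX at ZT12 52.2 ± 12.4. Each neighbouring pair in this order differed by less than the larger SD of the pair, so the order of neighbours is not resolved. Alas2 had its highest group mean in WT ADX at ZT12 (3.76 ± 1.40 FPKM) and its lowest in WT ADX+DEX at ZT12 (1.35 ± 0.437 FPKM), and its neighbours likewise differed by less than the larger SD.

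Animals of one group differed widely, and all 5 genes differed together. The within-group SD on the log2(FPKM + 1) scale was 0.472 for Hbb-bs, 0.466 for Hbb-bt, 0.45 for Hba-a2, 0.443 for Hba-a1 and 0.36 for Alas2, against a median of 0.098 over the 12000 tested genes. These values lie at the 95.9 to 98.1 percentiles of all tested genes on that scale. The added 1 FPKM narrows the spread of low genes, Alas2 among them, so the median and the percentiles also depend on level. On the deposited log2 scale used for the tests, Alas2 spread most of the 5. Its SE for ZT12 against ZT0 in WT sham was 0.377, against 0.314 to 0.336 for the globins. The summed globins spanned 4.44-fold among the 7 WT ADX libraries and 1.35-fold among the 8 RE-RE ADX libraries. The library with the most globin RNA of all was WT ADX+ADR ZT0 replicate 2, with 406 FPKM summed, and the one with the least was RE-RE sham ZT0 replicate 1, with 68.6 FPKM.

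Across the 47 libraries, after the group means were removed, the 10 pairs of genes had Pearson r between 0.953 and 0.984 and Spearman rho between 0.908 and 0.977 on the log2(FPKM + 1) scale. The permutation p was 1e-05 for each pair, the smallest that 100000 resamples can give, and 1e-05 after Benjamini-Hochberg adjustment over the 10 pairs. Without the 2 libraries farthest from the median, r was 0.942 to 0.979. The copies Hba-a1 and Hba-a2 had r = 0.979 and Hbb-bs and Hbb-bt r = 0.974, while Hbb-bs had r = 0.984 with Hba-a1 and r = 0.963 with Alas2, which lie on other chromosomes.

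**Figure D2:**
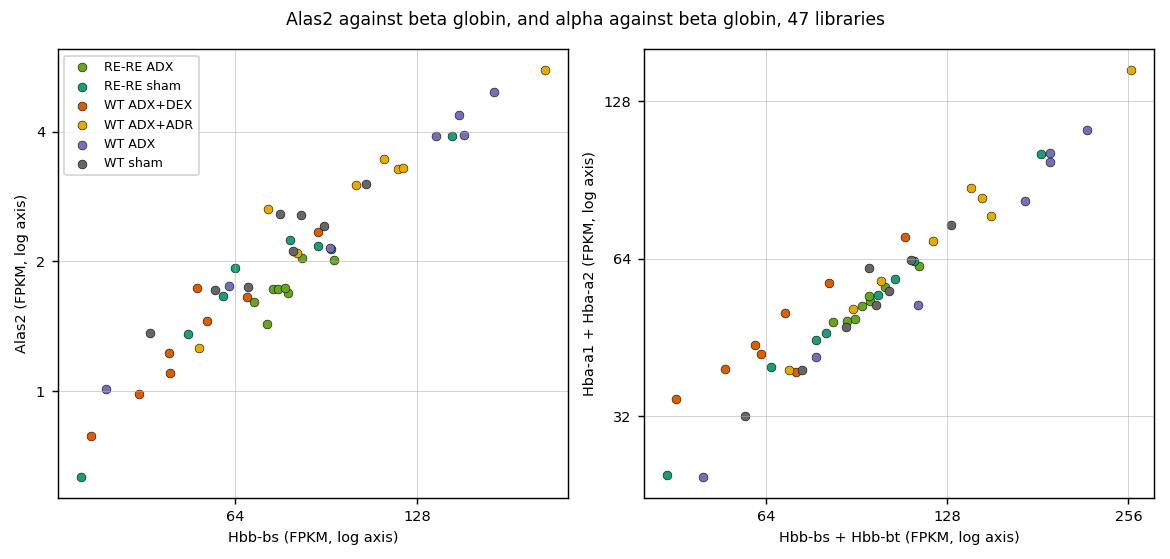
Left, Alas2 against Hbb-bs; right, summed alpha against summed beta globins; FPKM on log2 axes, one point per library, coloured by condition. Both pairs rise together over the whole range, and most WT ADX+DEX points lie above the others on the right, with more alpha for a given beta.

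Dexamethasone-injected muscle held less globin and Alas2 RNA than adrenalectomized muscle without injection. At ZT12 Hbb-bs was at 55.4, 66.8, 49.8 and 36.9 FPKM in WT ADX+DEX, against 172, 150.1, 153 and 62.5 FPKM in WT ADX. At ZT0 it was at 57.6, 44.3, 49.8 and 87.7 FPKM in WT ADX+DEX, against 39.0, 138 and 91.9 FPKM in WT ADX. The groups overlapped at both times, through the low WT ADX libraries ZT12 replicate 7 and ZT0 replicate 1. Averaged over ZT12 and ZT0, Hbb-bs fell by 0.87 on the log2 scale (SE 0.24, adjusted p = 0.00139), with means of 56.0 ± 15.6 FPKM in WT ADX+DEX (SD, n = 8) and 115 ± 50.9 FPKM in WT ADX (n = 7). That is a fold of 0.545.

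Alas2 was at 1.73, 1.65, 1.22 and 0.788 FPKM in WT ADX+DEX at ZT12, against 4.96, 4.38, 3.94 and 1.76 FPKM in WT ADX. These groups did not overlap, nor did those of Hbb-bt, as for 59.4% of all tested genes. At ZT0 it was at 1.45, 0.985, 1.10 and 2.34 FPKM in WT ADX+DEX, against 1.01, 3.91 and 2.14 FPKM in WT ADX, and there the groups overlapped. Over both times Alas2 fell by 0.99 (SE 0.28, adjusted p = 0.00154) and Hbb-bt fell by 0.99 (SE 0.25, adjusted p = 0.000504). Hba-a2 fell by 0.52 (adjusted p = 0.0445), and Hba-a1, at -0.38, did not pass (adjusted p = 0.134). So 4 of the 5 genes were called lower, where 36.3% of the 12000 tested genes were lower and 77.1% changed in either direction; with a background of that size the calls do not set these genes apart. The median change of the 5 was -0.87, and that of all tested genes was 0.03. The calls of Hbb-bs, Hbb-bt and Alas2 held in every alternative that was run for them, with Hbb-bs between -1.13 and -0.67 when single libraries were left out. The call of Hba-a2 ended in 15 alternatives. It ended with the alpha copies summed (-0.44), the safer value, so no alpha call stands on that measure. It also ended with equal medians (-0.48), a replicate block (-0.48) and only the compared groups in the model (-0.52). Leaving out the 7 libraries, none of them in these groups, ended it at an unchanged -0.52. So did leaving out each of 10 single libraries (WT ADX ZT0 replicates 2 and 3, ZT12 replicates 4, 5 and 6, WT ADX+DEX ZT0 replicates 1, 2 and 3, ZT12 replicates 7 and 8), with -0.50 to -0.32 without them.

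By time, all 5 genes fell at ZT12, by 0.81 for Hba-a1 (adjusted p = 0.0225) up to 1.43 for Alas2 (adjusted p = 0.00109), where 31.7% of tested genes were lower and 66.3% changed. At ZT0 none passed (limma, no unadjusted p under 0.05), with changes between -0.55 and 0.06, where 68.9% of tested genes changed. For Hbb-bs, WT ADX ZT0 replicate 1 was the lowest of all 7 WT ADX libraries. Without it, Hbb-bt (-0.99), Hbb-bs (-0.96) and Alas2 (-1.06) passed at ZT0, and Hba-a1 passed over both times (-0.61). Hba-a1 over both times also passed without WT ADX ZT12 replicate 7 (-0.55). The difference between the times was not significant for any of the 5 genes (limma, adjusted p = 0.202 to 0.291, no unadjusted p under 0.05), where 17.2% of tested genes were called. At ZT12 the call of Hba-a1 ended without WT ADX replicate 4 (-0.66), 5 (-0.70) or 6 (-0.74) or WT ADX+DEX replicate 8 (-0.68). That of Hba-a2 ended without WT ADX replicate 4 (-0.76) or WT ADX+DEX replicate 8 (-0.77). In bulk muscle, fewer red cells in the sample and less globin RNA per red cell cannot be told apart.

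Dexamethasone-injected muscle was also lower than adrenaline-injected muscle, where both groups had surgery and injections. At ZT12 Hbb-bs was at 55.4, 66.8, 49.8 and 36.9 FPKM in WT ADX+DEX, against 119, 121, 72.6 and 55.9 FPKM in WT ADX+ADR. At ZT0 it was at 57.6, 44.3, 49.8 and 87.7 FPKM in WT ADX+DEX, against 101, 208, 113 and 81.2 FPKM in WT ADX+ADR. The groups overlapped at both times, at ZT0 through the highest WT ADX+DEX library and the lowest WT ADX+ADR library. The WT ADX+DEX libraries are the same ones as in the comparison with WT ADX. Over both times Hbb-bs fell by 0.90 (SE 0.23, adjusted p = 0.00105), Alas2 by 1.09 (SE 0.27, adjusted p = 0.000638) and Hbb-bt by 0.87 (SE 0.24, adjusted p = 0.00202). Hba-a1 fell by 0.63 (adjusted p = 0.0154) and Hba-a2 by 0.65 (adjusted p = 0.0146). All 5 were called lower, where 27.9% of tested genes were lower and 57.4% changed in either direction. Without WT ADX+ADR ZT0 replicate 2, the calls of Hba-a1 (-0.50) and Hba-a2 (-0.51) ended, and those of Hbb-bs, Hbb-bt and Alas2 held in every alternative run.

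At ZT0 alone, all 5 fell against WT ADX+ADR, by 0.84 (Hba-a1) to 1.25 (Alas2), where 23.5% of tested genes were lower and 48.6% changed. Without replicate 2 of WT ADX+ADR the calls ended for Hbb-bs (-0.76), Hbb-bt (-0.60), Hba-a1 (-0.59) and Hba-a2 (-0.64), and held for Alas2. With the replicate number as a block and only the compared groups in the model, all 5 calls ended, that of Alas2 included. The call of Hbb-bt also ended without WT ADX+DEX replicate 2 (-0.76) or 3 (-0.87), and that of Hba-a1 without replicate 1 (-0.76), 2 (-0.76) or 3 (-0.81). At ZT12 Alas2 fell by 0.92 (adjusted p = 0.046) and Hbb-bt by 0.82 (adjusted p = 0.0465), where 21.4% were lower and 42.6% changed. Each call ended in 10 alternatives, among them equal medians, age as a covariate, array weights (Alas2 -0.62, Hbb-bt -0.67) and leaving out the 7 libraries. None of the 7 is in these groups and the changes stayed at -0.92 and -0.82, so only the pooled spread and the adjustment differed. The call of Hbb-bt also ended with the beta copies summed (-0.79). Both calls also ended without WT ADX+ADR replicate 5 or 6 or WT ADX+DEX replicate 7 or 8, that of Alas2 also without WT ADX+ADR replicate 7 and that of Hbb-bt without WT ADX+DEX replicate 5. Hbb-bs, at -0.78 (adjusted p = 0.0532), passed without WT ADX+ADR replicate 7 (-0.87) or 8 (-0.99) or WT ADX+DEX replicate 6 (-0.91). Without the libraries that ended their calls, Alas2 stood at -0.90 to -0.69 and Hbb-bt at -0.89 to -0.65.

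**Figure D3:**
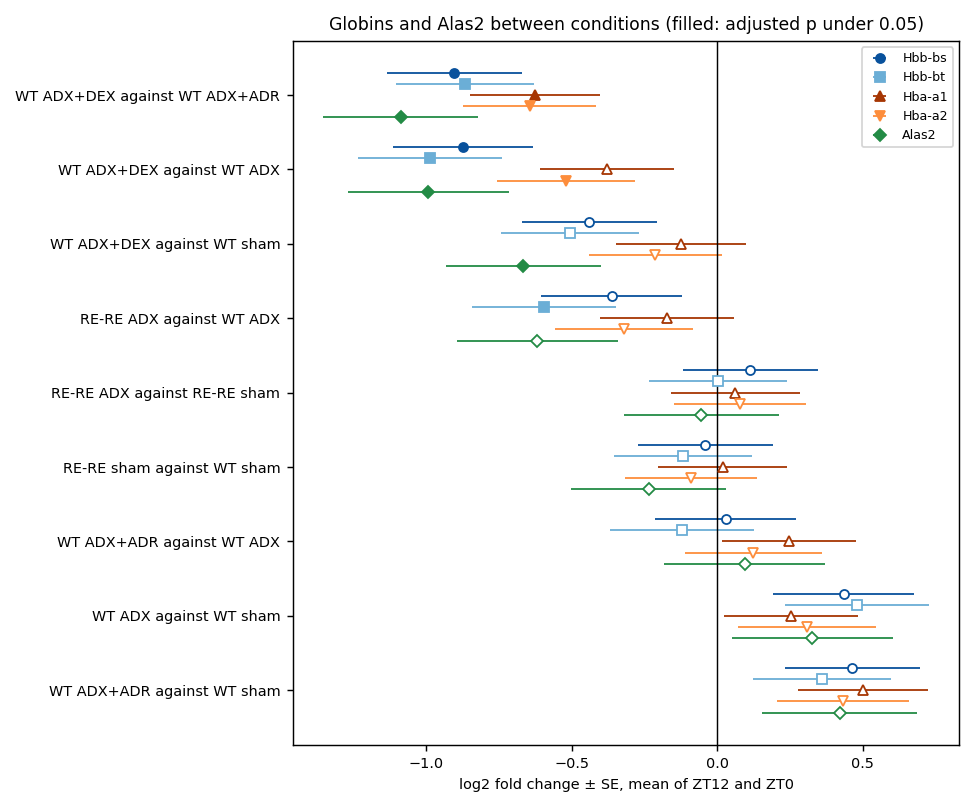
Log2 fold change ± SE of the 5 genes for 9 pairs of conditions, averaged over ZT12 and ZT0; filled symbols passed the test. The 11 filled symbols all lie below 0, and 10 of them compare WT ADX+DEX with another group.

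Against sham-operated muscle the dexamethasone group was lower in Alas2. Alas2 averaged 1.41 ± 0.498 FPKM in WT ADX+DEX and 2.19 ± 0.555 FPKM in WT sham (SD, n = 8 each), a fall of 0.67 (SE 0.27, adjusted p = 0.0259). Hbb-bt stood at -0.51 (adjusted p = 0.0568), Hbb-bs at -0.44 (0.0894), Hba-a2 at -0.21 (0.411) and Hba-a1 at -0.12 (0.631), where 35.2% of tested genes were lower and 69.6% changed. At ZT0 none of the 5 was called and none had an unadjusted p under 0.05, where 62.6% changed. At ZT12 alone Alas2, Hbb-bt and Hbb-bs fell, by 1.03, 0.85 and 0.78, where 28.1% of tested genes were lower and 52.7% changed, and the 4 libraries of each group did not overlap for these 3 genes or for Hba-a1, which was not called. Over all tested genes 45.8% did not overlap in this comparison. WT sham mice were younger, and with age as a covariate none of these 4 calls passed, with Alas2 at -0.47 over both times. They also ended without the 7 libraries with few exact shared values, of which WT sham ZT0 replicate 4 and ZT12 replicate 8 enter here (Alas2 -0.69 over both times). The 4 calls ended as well without WT ADX+DEX ZT12 replicate 8, with Alas2 at -0.55 over both times and, at ZT12, Alas2 at -0.79, Hbb-bt at -0.69 and Hbb-bs at -0.62. Hbb-bt over both times passed without WT ADX+DEX ZT0 replicate 4 (-0.60), ZT12 replicate 6 (-0.56) or WT sham ZT0 replicate 4 (-0.56), and Hbb-bs without the first of these (-0.54). Alas2 over both times also ended without WT ADX+DEX ZT0 replicate 2 (-0.58) or 3 (-0.61). The ZT12 calls of Hbb-bt and Hbb-bs ended without WT sham replicate 7 (-0.84 and -0.77) or 8 (-0.78 and -0.69) or WT ADX+DEX replicate 7 (-0.84 and -0.77). That of Alas2 ended without WT sham replicate 8 (-0.96), and that of Hbb-bs without WT sham replicate 5 (-0.81) or WT ADX+DEX replicate 5 (-0.82).

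Adrenalectomy alone changed none of the 5 genes by the test. Hbb-bs averaged 115 ± 50.9 FPKM in WT ADX (n = 7) and 75.7 ± 18.3 FPKM in WT sham (SD, n = 8). At ZT12 WT ADX had 3 libraries above 150 FPKM and 1 at 62.5, against 82.2, 76.0, 89.7 and 105 FPKM in WT sham, so a single WT ADX library made the groups overlap. Over both times the changes were 0.25 (Hba-a1) to 0.48 (Hbb-bt), with adjusted p of 0.112 to 0.393 and no unadjusted p under 0.05, where 44.6% of tested genes changed, 18.1% higher and 26.5% lower. None was called at ZT12 or ZT0 alone either, nor at an unadjusted p under 0.05, where 26.9% and 32.0% of tested genes changed. For Hbb-bt and Hbb-bs over both times, the absence of a call depended on each of the 2 low WT ADX libraries. Without ZT0 replicate 1, Hbb-bt (0.70) and Hbb-bs (0.69) passed over both times. Without ZT12 replicate 7, they passed at 0.66 and 0.60, and Hbb-bt passed at ZT12 alone (0.94). In RE-RE mice Hbb-bs averaged 77.8 ± 7.52 FPKM after adrenalectomy and 77.4 ± 33.4 FPKM after sham surgery (SD, n = 8 each), with changes of the 5 genes between -0.06 and 0.11 and none called or at an unadjusted p under 0.05, where 16.2% of tested genes changed. At ZT12 alone 5.32% and at ZT0 alone 5.45% of tested genes changed, and none of the 5. The adrenalectomy effect in RE-RE minus that in WT was -0.48 to -0.19 (limma, adjusted p = 0.33 to 0.708), where 22.5% of tested genes were called.

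At ZT0 adrenaline-injected muscle held more globin and Alas2 RNA than sham-operated muscle. Hba-a1 was at 38.4, 78.8, 47.8 and 31.5 FPKM in WT ADX+ADR, against 24.2, 29.2, 19.1 and 16.9 FPKM in WT sham, with no overlap. It rose by 1.08 (SE 0.31, adjusted p = 0.0055), Alas2 by 0.95 (adjusted p = 0.0395), Hba-a2 by 0.94 (adjusted p = 0.0172) and Hbb-bs by 0.93 (adjusted p = 0.0208), while Hbb-bt stood at 0.75 (adjusted p = 0.0677) and passed without WT ADX+ADR replicate 1 (0.89) or 4 (0.93). That is 4 of 5, where 20.2% of tested genes were higher and 43.1% changed. Hbb-bs and Hba-a2 did not overlap between the groups either, while Alas2 and Hbb-bt did, and 40.5% of all tested genes did not overlap. The call of Hba-a1 held in every alternative run. Those of the other 3 ended without WT ADX+ADR replicate 2 (Hbb-bs 0.66, Hba-a2 0.67, Alas2 0.70) and without WT sham replicate 4 (Hbb-bs 0.79, Hba-a2 0.80, Alas2 0.84). That of Alas2 also ended without WT sham replicate 1 (0.96) or 3 (0.95) or WT ADX+ADR replicate 1 (1.00) or 3 (0.93).

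At ZT12 the same comparison gave changes of -0.11 to -0.0017 with none called or at an unadjusted p under 0.05, where 39.0% of tested genes changed. Over both times it gave 0.36 to 0.50 with none called (adjusted p = 0.0541 to 0.199; unadjusted p under 0.05 for 1 gene), where 54.5% changed. That gene, Hba-a1, passed without WT ADX+ADR ZT0 replicate 1 (0.55) or 4 (0.59), ZT12 replicate 8 (0.61) or WT sham ZT0 replicate 2 (0.57), and with age as a covariate (0.63). Hbb-bs passed over both times without WT ADX+ADR ZT0 replicate 4 (0.55) or ZT12 replicate 8 (0.57). Against WT ADX over both times the adrenaline group stood at -0.12 to 0.25 with none called or at an unadjusted p under 0.05, where 65.5% of tested genes changed. At ZT12 alone none was called, where 53.0% changed. Without WT ADX ZT12 replicate 7, Hbb-bt (-0.97), Hbb-bs (-0.85), Hba-a1 (-0.75) and Hba-a2 (-0.85) passed there. At ZT0 Hba-a1 rose by 0.90 against WT ADX (adjusted p = 0.0262), where 26.8% were higher and 51.1% changed, and this call ended without WT ADX replicate 1 (0.44) or WT ADX+ADR replicate 2 (0.64). Without WT ADX replicate 2, Hbb-bs (0.98), Hba-a2 (1.17) and Alas2 (1.17) passed too, and Hba-a2 passed without WT ADX+ADR replicate 1 (0.89) or 4 (0.96).

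RE-RE adrenalectomized muscle had less Alas2 and Hbb-bt RNA than WT adrenalectomized muscle at ZT12, with little spread between its libraries. At ZT12 Alas2 was at 1.61, 1.72, 1.73 and 1.73 FPKM in RE-RE ADX, against 4.96, 4.38, 3.94 and 1.76 FPKM in WT ADX. The groups did not overlap, as for 36.4% of all tested genes, and the other 4 genes overlapped. Alas2 fell by 1.04 (SE 0.38, adjusted p = 0.027) and Hbb-bt by 0.98 (SE 0.34, adjusted p = 0.02), where 18.3% of tested genes were lower and 38.0% changed. At ZT0 none of the 5 was called or had an unadjusted p under 0.05, where 39.0% changed. Both calls at ZT12 ended without WT ADX replicate 4, 5 or 6, and without RE-RE ADX replicate 5, with Alas2 at -1.02 to -0.87 and Hbb-bt at -0.91 to -0.79. Over both times only Hbb-bt passed, at -0.60 (adjusted p = 0.0394), where 27.1% were lower and 55.2% changed. Its call ended in 13 alternatives. They included leaving out WT ADX ZT0 replicate 2 or 3, ZT12 replicate 4, 5 or 6, RE-RE ADX ZT0 replicate 3 or 4, and ZT12 replicate 5 or 6, with -0.59 to -0.41 without them. Without WT ADX ZT0 replicate 1, Hbb-bs (-0.62), Hba-a2 (-0.56) and Alas2 (-0.87) passed over both times, and without ZT12 replicate 7 Alas2 did (-0.78). At ZT12 alone, Hbb-bs (-1.10), Hba-a1 (-0.98) and Hba-a2 (-1.10) passed without WT ADX replicate 7. The sum of the beta copies over both times stood at -0.41 and was not called. RE-RE sham against WT sham gave changes of -0.24 to 0.02 over both times, with none called or at an unadjusted p under 0.05, where 36.9% of tested genes changed. At ZT12 alone 19.3% and at ZT0 alone 24.1% of tested genes changed, and none of the 5.

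The time of day changed none of the 5 genes in any condition by the test, which pools the spread of all 12 groups. In WT sham Hba-a1 was at 31.4, 32.2, 34.2 and 39.8 FPKM at ZT12, against 24.2, 29.2, 19.1 and 16.9 FPKM at ZT0, and Alas2 was at 2.56, 2.58, 2.42 and 3.03 FPKM at ZT12, against 1.75, 2.11, 1.72 and 1.36 FPKM at ZT0. The times did not overlap for these genes or for Hba-a2, as for 24.8% of all tested genes. The changes of 0.43 to 0.65 in the 5 genes had adjusted p of 0.136 to 0.382, where 23.5% of tested genes changed. The pooled SE for Alas2 here was 0.377. The log2 SD of Alas2 was 0.257 in WT sham at ZT0 and 0.138 at ZT12, against 0.973 in WT ADX at ZT0. A flat profile in WT sham therefore does not follow from the test. With only the compared groups in the model, some tests of time were called, as counted in the last section. In WT ADX the changes were 0.62 to 0.83 and in RE-RE sham 0.69 to 0.75, where 11.0% and 10.8% changed. In RE-RE ADX they were -0.15 to -0.07, where 0.775% changed. In WT ADX+DEX they were -0.26 to 0.06, where 27.8% changed. In WT ADX+ADR they were -0.51 to -0.35, where 12.7% changed. Of the 30 tests, 7 had an unadjusted p under 0.05, in WT sham, WT ADX and RE-RE sham. In WT ADX, leaving out ZT12 replicate 7 gave calls for Hba-a1 (1.14) and Hba-a2 (1.14), and leaving out ZT0 replicate 2 gave a call for Hba-a1 (1.21).

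No difference between time effects passed the test. In WT ADX+ADR the ZT12 against ZT0 change minus that of WT ADX was -1.31 (SE 0.47) for Hba-a2 and -1.30 (SE 0.46) for Hba-a1, with adjusted p of 0.111 and 0.103, where 4.62% of tested genes were called. Minus that of WT sham, the changes were -1.16 to -0.78 (adjusted p = 0.101 to 0.329), where 7.93% were called. Both share the adrenaline libraries. In the injected groups the time effect also holds the time since an injection at ZT12, which WT ADX and WT sham lack. Without WT ADX ZT0 replicate 2, Hba-a1 (-1.72) and Hba-a2 (-1.70) passed against WT ADX, and without WT ADX ZT12 replicate 7 they passed at -1.65 and -1.62. Of the 50 tests of 10 differences of effects none passed in limma, and 6 had an unadjusted p under 0.05. The share of tested genes called was 1.54% for WT ADX minus WT sham, 0.0667% for RE-RE ADX minus RE-RE sham, 18.9% for WT ADX+DEX minus WT sham and 13.6% for WT ADX+DEX minus WT ADX+ADR. It was 0.342% for RE-RE sham minus WT sham and 0.283% for RE-RE ADX minus WT ADX.

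The balance of alpha and beta globin differed between conditions, with more alpha for each beta in dexamethasone-injected muscle. Summed beta over summed alpha FPKM in WT ADX+DEX was 1.37, 1.42, 1.40 and 1.31 at ZT12 and 1.84, 1.38, 1.49 and 1.55 at ZT0. In WT ADX it was 1.93, 1.86, 1.93 and 1.86 at ZT12 and 2.05, 2.09 and 2.19 at ZT0. All 8 WT ADX+DEX libraries lay below all 7 WT ADX libraries. The mean log2 of alpha over beta was -0.55 ± 0.153 in WT ADX+DEX and -0.99 ± 0.0898 in WT ADX, an average difference within times of 0.45 (exact two-sided permutation test within times, p = 0.00082, adjusted over 9 pairs of conditions 0.00245).

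Alpha over beta was also higher in WT ADX+DEX than in WT sham by 0.29 and than in WT ADX+ADR by 0.26 (exact permutation tests, adjusted p = 0.00276 and 0.0049). It was higher than in WT ADX by 0.19 in WT ADX+ADR and by 0.17 in RE-RE ADX (exact permutation tests, adjusted p = 0.00441 and 0.00184). WT ADX was lower than WT sham by 0.17 (-0.17, exact permutation test, adjusted p = 0.00184). The 3 other pairs did not pass. This ratio was chosen after the values of the 5 genes had been seen. At ZT12 or ZT0 alone no pair passed the adjustment. The smallest exact p that 4 against 4 libraries allow is 0.0286, and the smallest adjusted p at either time was 0.0514.

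Alas2 relative to the globins was lower with dexamethasone. Summed globin over Alas2 FPKM averaged 85.4 ± 11.3 in WT ADX+DEX, 70.2 ± 4.73 in WT ADX and 67.7 ± 5.45 in WT sham (SD). The log2 of Alas2 over globin was lower in WT ADX+DEX than in WT ADX by 0.27 (-0.27), than in WT sham by 0.33 (-0.33) and than in WT ADX+ADR by 0.30 (-0.30), with adjusted p of 0.0303, 0.011 and 0.0303 in exact permutation tests over 9 pairs. RE-RE ADX was likewise lower than WT ADX (-0.27, exact permutation test, adjusted p = 0.011), with 84.9 ± 5.43 globin per Alas2. Against the beta globins alone, 1 pair passed, RE-RE ADX against WT ADX, and the 3 dexamethasone pairs did not (exact permutation tests, adjusted p = 0.0716 to 0.259). Without WT ADX+DEX ZT12 replicate 8, 2 of the 9 pairs passed instead of 4.

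**Figure D4:**
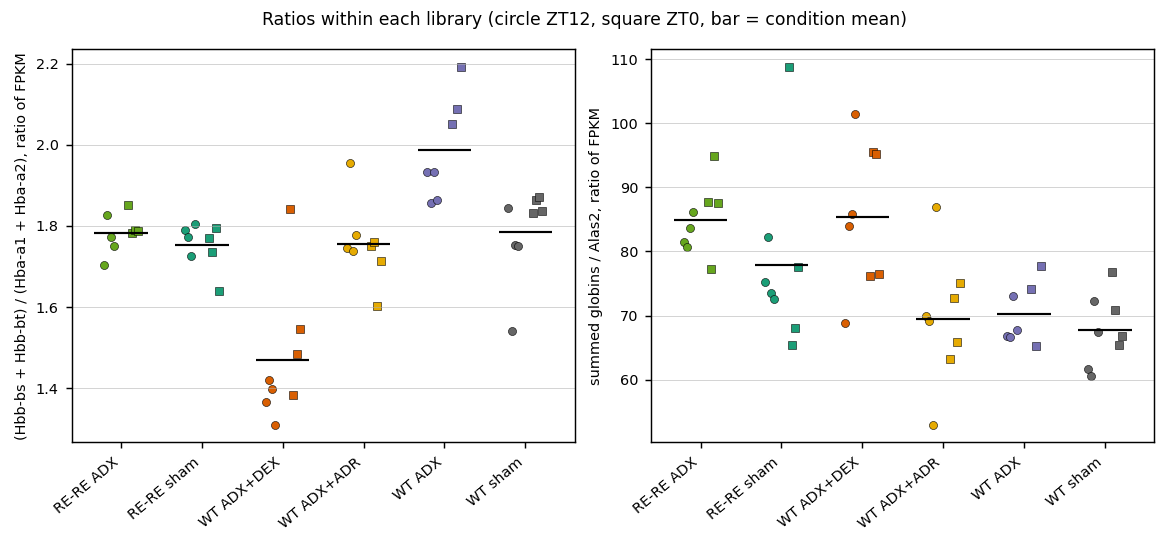
Left, summed beta over summed alpha globin FPKM; right, summed globin over Alas2 FPKM, per library (circles ZT12, squares ZT0; bars are condition means). The beta to alpha ratio reaches at most 1.84 in WT ADX+DEX and is 1.86 or more in WT ADX.

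The other enzymes of heme synthesis, which every cell uses, were mostly higher in dexamethasone-injected muscle, where Alas2 was lower. Against WT ADX over both times, 6 of the 8 rose and 1 fell, with a median of 0.26, where 40.8% of tested genes rose and 36.3% fell. Alas1, the enzyme of non-erythroid heme synthesis, rose by 1.63 (SE 0.13, adjusted p = 4.34e-14) and Uros, a later enzyme of the pathway, by 0.33 (SE 0.04, adjusted p = 2.98e-08). Fech, which inserts the iron, rose by 0.25 (adjusted p = 1.78e-07), while Ppox fell by 0.12 (adjusted p = 0.00458). Alas1 averaged 46.4 ± 14.6 FPKM in WT ADX+DEX, 14.5 ± 2.46 FPKM in WT ADX and 26.4 ± 4.78 FPKM in WT sham.

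Myoglobin (Mb), the oxygen-binding globin of muscle fibres, was higher in dexamethasone-injected muscle and lower in adrenalectomized muscle. It averaged 3972 ± 622 FPKM in WT ADX+DEX (n = 8), 1165 ± 277 FPKM in WT ADX (n = 7) and 2732 ± 628 FPKM in WT sham (SD, n = 8), with no overlap between WT ADX+DEX and WT ADX. It rose by 1.78 (SE 0.13, adjusted p = 2.96e-15) in WT ADX+DEX against WT ADX and fell by 1.22 (SE 0.13, adjusted p = 1.62e-09) in WT ADX against WT sham. Alas1 fell by 0.85 (adjusted p = 1.61e-06) in the comparison with sham. There 5 of the 8 heme enzymes were lower and none higher, where 26.5% of all tested genes were lower and 18.1% higher.

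Genes of the vessel wall were mostly lower in dexamethasone-injected muscle. Of 10 endothelial genes 9 fell and 1 rose in WT ADX+DEX against WT ADX, with a median of -0.92, where 36.3% of all tested genes were lower and 40.8% higher. Cdh5, the junction protein of endothelium, fell by 1.44 (SE 0.08, adjusted p = 3.09e-18), Esam by 1.22 (SE 0.06, adjusted p = 2.8e-19) and Egfl7 by 1.47 (SE 0.09, adjusted p = 6.89e-18). Flt1, a receptor of vascular growth factor, rose by 0.95. Cldn5 fell as well, but it was listed at 0 in 2 libraries and its fold is not interpretable. The summed level of the 10 genes was at most 115 FPKM in WT ADX+DEX (lowest 94.9 FPKM), against 222 to 280 FPKM in WT ADX and 143 to 188 FPKM in WT sham.

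In WT ADX against WT sham 8 of the 10 endothelial genes rose and 1 fell, where 18.1% of all tested genes were higher and 26.5% lower, beside the uncalled 0.25 to 0.48 of the blood genes. The part of the vessels in the levels of the blood genes was not tested. Within groups, the level of Hbb-bs was set against the mean of each of 6 lists over the 47 libraries, a relation added after the values had been seen. For the endothelial genes r was 0.412 and rho 0.486 (permutation p = 0.012 and 0.00272, adjusted over 6 lists 0.036 and 0.00816), with r = 0.391 without the 2 farthest libraries. For the red cell and erythroid genes r was 0.508 and rho 0.531 (permutation p = 0.00019 and 0.0005, adjusted 0.00114 and 0.003), with r = 0.472 without the 2 farthest. The other 4 lists did not pass: r was 0.315 for macrophage genes, 0.188 for iron and heme handling, -0.066 for the heme enzymes and -0.22 for fast muscle genes (permutation tests, adjusted p = 0.27 to 0.705).

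The listed markers of lymphocytes and neutrophils gave little to compare. Ighm of B cells, outside these lists, is given with the genes ranked by likeness. None of 8 lymphocyte genes and 2 of 13 neutrophil genes had a row among those analysed, and both of these were listed at 0 in 23 libraries. Lcn2, an iron-binding protein of neutrophils that other cells also make, was at 84.7 to 162 FPKM in WT ADX+DEX and listed at 0 in all 7 WT ADX libraries. Mmp9 was not called (adjusted p = 0.0576). Pf4, the one platelet gene of 8 with a row, fell by 0.49 in WT ADX+DEX against WT ADX (SE 0.16, adjusted p = 0.00602). Of 9 macrophage genes 5 fell and 1 rose, where 36.3% of all tested genes were lower and 40.8% higher, with summed levels between 19.6 and 53.9 FPKM in WT ADX+DEX, against 23.3 to 80.8 FPKM in WT ADX. Their part in the levels of the 5 genes was not tested.

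**Figure D5:**
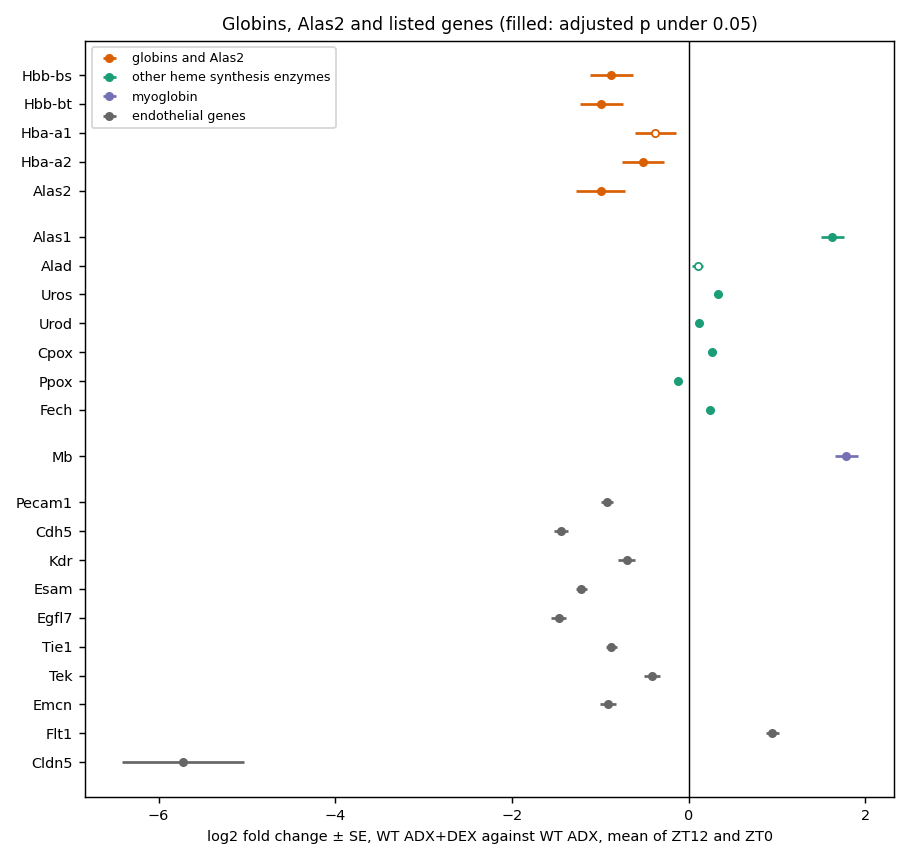
Log2 fold change ± SE in WT ADX+DEX against WT ADX, averaged over ZT12 and ZT0, for the 5 blood genes, 7 of the 8 other heme enzymes, myoglobin (Mb) and 10 endothelial genes; filled points passed the test. Heme enzymes lie mostly right of 0 and blood and endothelial genes mostly left, and the far left point is Cldn5, listed at 0 in 2 libraries.

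Of 34 further red cell and erythroid genes, 15 had a row and 14 were tested. In WT ADX+DEX against WT ADX 8 fell and 4 rose, with a median of -0.19, where 36.3% of all tested genes were lower and 40.8% higher. Those that fell included Tal1, a factor of blood and endothelial development (-1.21, adjusted p = 4.4e-12), Slc25a37, the mitochondrial iron carrier (-0.79, adjusted p = 6.32e-18), and Ube2l6 (-1.38, adjusted p = 1.8e-09). Several of the list are made by muscle too: Sptb, at a mean of 35.0 FPKM, rose by 0.68, and Ank1, at 43.6 FPKM, fell by 0.19. Tfrc, the transferrin receptor, was called higher, but it was listed at 0 in 3 libraries and its fold is not interpretable. Of 13 genes of iron and heme handling 5 fell and 3 rose, a share of lower genes close to that of all tested genes. Hmox1, which breaks heme down, stood at -0.15 (adjusted p = 0.37), and Hfe, a sensor of iron stores, fell by 1.43 (adjusted p = 5.8e-18).

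Likeness to the 5 genes was ranked by Pearson r on log2(FPKM + 1) among 10053 genes over 47 libraries. Among the 3 genes most like a member were Ube2l6, with r up to 0.704 over all libraries (Hbb-bt), and Ighm, an immunoglobulin heavy chain of B cells, with r up to 0.706 (Hbb-bs). After removing group means, Ube2l6 had r of 0.608 (Hba-a1) to 0.647 (Hbb-bs). These values describe likeness only. The libraries differ in depth, and where group means were kept they also differ in group. Ranked there as well were Ramp2, Ntf3, Npc2, Card10, Snrpe, Wwp2 and Cdk5, with r of 0.565 to 0.689 over all libraries or after removing group means.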

How the data were processed

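The authors deposited log2 FPKM values per gene, with an offset of 0.01 FPKM judged from the lowest value, and no counts. The submitters' processing notes name the build GRCm38 and the tools HISAT2 (2.1.0), edgeR (3.30.0), featureCounts (1.6.2), FastQC (0.11.8) and Trim Galore (0.5.0). The annotation, the strand setting and the handling of multiple matches are not given in the sources used here. Reads were single-end, 60 bases, on average 25000000 per sample per the labels' protocols.

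Genes reaching 1 FPKM in at least 3 libraries (12000) were tested on the deposited log2 scale with limma 3.58.1 in R 4.3.3 (12 group means, trended prior, 35 residual degrees of freedom, 43 contrasts). P-values were adjusted by Benjamini-Hochberg within a contrast over all tested genes, and genes were called at adjusted p under 0.05. Ratios were tested by exact permutation of labels within each time. On simulated data for WT ADX+DEX against WT ADX over both times, 93% of genes changed by 1 log2 unit and 96% of those changed by 2 were called, over 12000 genes. For ZT12 against ZT0 in WT sham these shares were 95% and 91%. The changed genes were drawn from all tested genes, and the members spread more within groups than most of those. The shares therefore do not give how often a change in the members would be called.

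FPKM is relative to all reads of a library, so a large change elsewhere shifts every value. The depth was estimated from low-value steps of 68 genes (7 to 22 values a library, at least 91.7% whole within 0.05 of a read). All 5 genes enter every comparison, by value or within a range. Genes of the lists are named as up to 4 called genes with the smallest adjusted p or as fixed defining genes, and the 3 most like each member by Pearson r. Hfe, Flt1, Cldn5, Ppox, Ank1, Sptb, Lcn2 and Mmp9 were singled out after their values were seen. Some genes of the lists and of the ranking by likeness are not reported here. The members and lists were chosen with earlier results of these data known. Alternatives were other scales, filters and models, and leaving out libraries. No columns were left unused.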

Additional observations from a re-analysis of the deposited data

Results flagged for a closer look

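Within the groups of 4 libraries, 77 sets of values were checked for a single library far from the other 3, and 4 stood out; chance alone gives about 1 in 20. In WT ADX+DEX at ZT0, replicate 4 was highest for Hba-a1 with 39.3 FPKM and for Hba-a2 with 31.2 FPKM, and it was also the highest of its group for Hbb-bs. In RE-RE ADX at ZT12, Alas2 was lowest in replicate 5 with 1.61 FPKM, one of the libraries with few exact shared low values, in a group whose other 3 libraries lay at 1.72 to 1.73 FPKM. In RE-RE ADX at ZT0, the log2 of alpha over beta globin was lowest in replicate 1 with -0.89, another of those libraries.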

How the results depend on the processing

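Of the 33 calls of single genes, 658 alternatives were computed: 532 kept direction and call, 126 kept direction and lost the call, and none reversed. Outside leaving out 1 library, 13 calls were lost without the 7 libraries with few shared values and 11 with a replicate block. Where the compared groups held none of the 7, as in WT ADX+DEX against WT ADX+ADR, the changes themselves were the same without them. For the time of day, 0 calls became 1 with array weights and robust variance and 3 with only the compared groups in the model; leaving out single libraries gave 0 to 2, the highest without WT ADX ZT12 replicate 7. Between conditions at one time, 22 calls became 12 without the 7 libraries, and 14 to 30 without single libraries, the lowest without WT ADX+ADR ZT0 replicate 2 and the highest without WT ADX ZT12 replicate 7. Over both times, 11 calls became 19 with array weights, and 9 to 17 without single libraries, the highest without WT ADX ZT0 replicate 1. Differences of effects gave 4 calls with array weights against 0, and 0 to 2 without single libraries. Alas2 over globin passed for 4 pairs of conditions, for 0 at ZT0 alone, 0 at ZT12 alone and 1 against the beta globins alone, and for 2 to 5 without single libraries. Alpha over beta, an added test, passed for 6 pairs, for 0 at ZT0 alone and 0 at ZT12 alone, and for 6 to 7 without single libraries. At single times the ratio tests use fewer libraries; elsewhere the cause was not tested. The filter of 1 FPKM in every library removes Alas2.

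Equal replicate numbers did not pair the libraries: in no pair of conditions was every correlation of same-numbered deviations above 0.1. With the replicate number as a block, 16 calls were made at single times and 13 over both times, and 0 for differences of effects; ZT12 and ZT0 share no numbers, so no paired analysis of time was possible. The depth limits Alas2 most, at about 33.1 reads in its lowest library.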
